A study of Mus musculus with 2 samples.

Results

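The glycolytic enzymes described here are the products of 10 genes, Hk1, Hk2, Pfkl, Pfkm, Pfkp, Aldoa, Aldoc, Pkm, Ldha and Ldhb, taken by name from the 32227 genes of the count matrices, and all 10 were found there. They were followed in nuclei of the thick ascending limb (TAL) of the mouse kidney, sorted by fluorescence from dissected cortex and dissected medulla. By the paper's method, cortex was a superficial strip of each slice and medulla all tissue that remained, so the medulla portion can include deeper cortex. For a class such as MD, cortical and medullary therefore name the library and not the exact site. The Cre driver is the promoter of Slc12a1, the gene of the Na-K-2Cl cotransporter NKCC2, and after tamoxifen it marks the nuclear envelope of TAL and macula densa cells with Sun1-sfGFP. Both libraries were labelled as kidney nuclear RNA from male B6 mice of wild-type genotype, age 12 with no unit given, and both groups carry the reporter. Each region had 1 library without a replicate. Region and library therefore cannot be told apart, and no difference has a replicate check. The labels do not say whether the libraries came from the same mice.

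Among barcodes called as nuclei, 5218 of 5442 in the cortex library and 7967 of 8121 in the medulla library had at least 10 Slc12a1 counts and were taken as TAL. Barcodes with at least 3 counts of Nos1 and Pappa2 together were called macula densa (MD). Of the rest, those with at least 2 Tmem52b counts were called TAL-beta, then those with at least 2 counts of Tmem207 and Gpc5 together TAL-gamma, and the remainder TAL-alpha. The cortex library held 653 MD, 2824 TAL-alpha, 1493 TAL-beta and 248 TAL-gamma barcodes. The medulla library held 78 MD, 571 TAL-beta and 3542 TAL-gamma barcodes. Its TAL-alpha barcodes were divided by the summed counts of Enox1 and Thsd4 into 1137 cortex-type (at least 5), 2330 medullary-type (at most 2) and 309 between.

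The class names were checked against genes that the rule did not use. Ptgs2, the inducible cyclooxygenase of macula densa cells, stood at 85.8 and 126 counts per 1000000 counts (CPM) in MD barcodes of the cortex and medulla library, and at 4.14 CPM or less in every other class. Cldn16 and Kcnj10 stood at 188 and 139 CPM in cortical TAL-beta against 101 and 17.8 CPM in cortical TAL-alpha, and Cldn10 at 116 against 216 CPM, so these classes differed in the direction of their names but were mixed. In the medulla library Cldn16, Kcnj10 and Pth1r together stood at 841 CPM in TAL-beta and 206 in TAL-gamma. They stood at 273 CPM in cortex-type and 73.0 in medullary-type TAL-alpha. Cldn10 and Ptger3 together stood at 410, 1699, 1940 and 2348 CPM in the same order. The paper marks TAL-gamma by Cldn10 with Kcnj10. These sums pool Kcnj10 with TAL-beta markers, so they do not check that name. Cortical TAL-gamma barcodes held Cldn16 at 153 CPM, close to TAL-beta, and are given as levels only. Total counts were 16457300 and 20947211 in the cortex and medulla library, the median per barcode lay between 1883 (cortical MD) and 2780 (medullary TAL-beta) in the classes, and the libraries shared 0 barcodes. Proximal tubule transcripts were present throughout and were more abundant in the cortex library, where the summed level of 6 marker genes was 1644 to 3139 CPM in the classes, against 180 to 528 CPM in the medulla library, with none of the 6 at 0 in any group.

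Glycolysis converts glucose to pyruvate in the cytosol. Hexokinase phosphorylates glucose, phosphofructokinase commits fructose 6-phosphate to the pathway, aldolase splits the resulting bisphosphate, pyruvate kinase forms pyruvate and lactate dehydrogenase interconverts pyruvate and lactate. The TAL is known for high energy demand and dense mitochondria, and the medulla for low oxygen tension. Several steps are catalysed by isozymes from separate genes, which differ in kinetics and in the tissues that use them.

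Many genes of the pathway are textbook targets of hypoxia-inducible factors, whose response element has the core letters RCGTG, where R is A or G. Only the form ACGTG was searched, so a window without a match can still hold GCGTG. In the 250 bases before the RefSeq transcription starts, 5 of the 10 genes (Hk2, Pfkm, Aldoa, Pkm and Ldha) held ACGTG on either strand before at least 1 start, in 7 of 19 windows. Among all 27025 genes with a window, 18.5% held ACGTG, and of all 32851 windows of the same length 16.6%. Members had 19 windows for 10 genes and all genes 32851 for 27025, so the shares of genes are not like for like. The overlapping windows of Aldoa starts 2 and 3 hold the same match. A match is a description of the letters and not a site of binding. The windows before Hk1, Hk2 and Ldha are shown because they hold, in order, an isozyme with no match, its paralogue with matches and the member with the most matches in 1 window. They come from RefSeq (table build GRCm38.p6), were placed on GRCm39 by exact match, and are cut where GENCODE M39 annotates an untranslated region. All are read 5′ to 3′ on the gene's strand, and capitals mark ACGTG or its reverse complement CACGT, which overlap in CACGTG.
Hk1, chr10:62215688-62215937, minus strand: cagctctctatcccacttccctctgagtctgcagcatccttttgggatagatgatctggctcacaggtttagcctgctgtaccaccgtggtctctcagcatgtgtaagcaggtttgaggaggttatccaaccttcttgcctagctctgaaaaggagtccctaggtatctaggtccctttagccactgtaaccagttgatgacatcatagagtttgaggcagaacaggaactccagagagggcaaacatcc
Hk2, chr6:82751470-82751685, minus strand: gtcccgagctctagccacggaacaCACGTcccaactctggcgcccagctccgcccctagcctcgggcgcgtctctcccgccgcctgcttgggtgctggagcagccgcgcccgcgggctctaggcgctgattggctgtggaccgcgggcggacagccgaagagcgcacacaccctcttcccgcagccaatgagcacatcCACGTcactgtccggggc
Ldha, chr7:46494978-46495131, plus strand: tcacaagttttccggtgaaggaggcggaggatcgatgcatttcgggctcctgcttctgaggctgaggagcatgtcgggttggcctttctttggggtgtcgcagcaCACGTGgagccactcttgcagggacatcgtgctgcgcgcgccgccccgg
The Hk1 stretch before the most upstream start held 0 matches and the Hk2 stretch held 2. Both read CACGT on the gene's strand, so that ACGTG lies on the opposite strand. The whole Ldha window held 5 matches, counted on both strands, of which the overlapping pair of 1 CACGTG lies in the stretch shown.

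On GRCm39 the genes lie on chromosomes 10 (Hk1, 62104621-62215687, and Pfkl, 77818084-77845922, both minus strand), 6 (Hk2, 82699740-82751469, and Ldhb, 142435672-142454586, both minus), 15 (Pfkm, 97990451-98031417, plus), 13 (Pfkp, 6629798-6698970, minus), 7 (Aldoa, 126393822-126399923, minus, and Ldha, 46490899-46505061, plus), 11 (Aldoc, 78213619-78218889, plus) and 9 (Pkm, 59563364-59586663, plus). Counts per gene do not separate exons from introns. Annotated genes overlap all members but Aldoc and Ldhb, mostly on the opposite strand, and whether counting used strand is not given in the sources used here. The overlapping gene with most counts was Senp1, opposite Pfkm, with 1188 and 1597 counts in the cortex and medulla library. Pfkm had 477 and 545 in TAL barcodes, so its counts are uncertain. How far the overlap changes them was not tested. The opposite-strand transcript Hk1os had 88 and 74 counts, against 4029 and 7343 counts of Hk1 in TAL barcodes. Pitrm1, opposite Pfkp, had 390 and 471, against 1505 and 3926 of Pfkp. Cfap410, opposite Pfkl, had 100 and 126, against 387 and 676 of Pfkl. Their effect on the counts of these members was not tested.

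Levels are the summed counts of a gene in a class, as CPM of all counts of that class, with exact Poisson 95% intervals in brackets. Ratios carry conditional binomial and shares Clopper-Pearson 95% intervals, and all intervals cover counting error only. A gene was called past 1.5-fold higher or lower when it had at least 50 counts over both classes. Because capture by a 3′ kit differs between genes, levels were compared between classes and never between genes. Summed over the 10 genes, the level was 558 (523-595) CPM in cortical MD and 494 (393-613) CPM in medullary MD, and lay between 1033 and 1248 CPM in the other 8 groups.

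**Figure D1:**
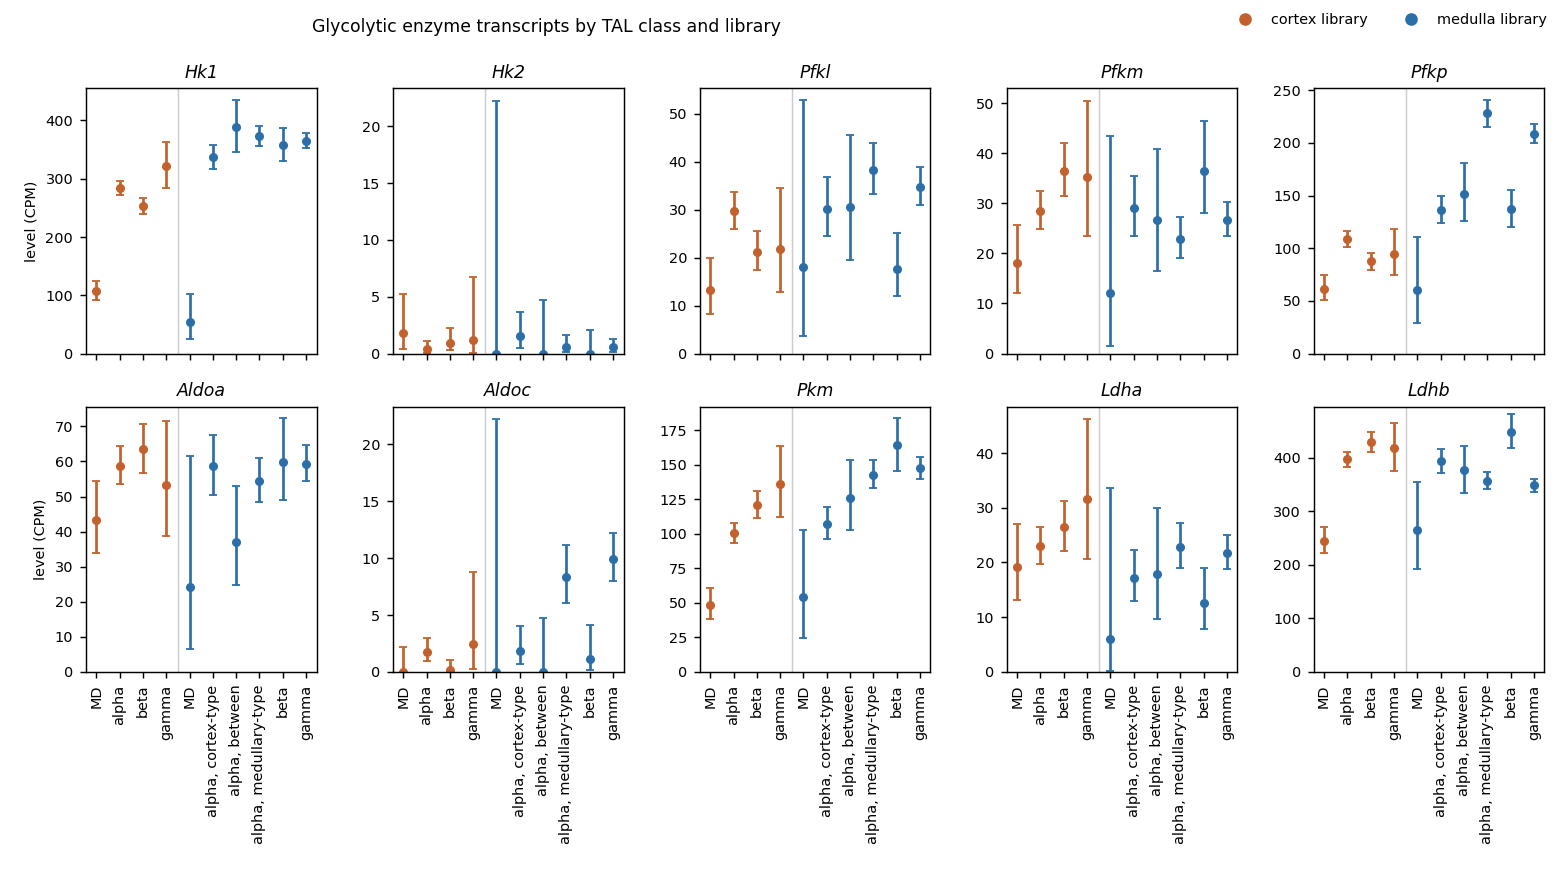
Level of each enzyme gene (CPM, linear axis from 0, 1 panel per gene) in the 4 classes of the cortex library (orange) and the 6 groups of the medulla library (blue). Points are levels and bars exact Poisson 95% intervals. Hk1 is lowest in both MD groups, and Pfkp is highest in medullary-type TAL-alpha at 228 CPM and in medullary TAL-gamma at 209 CPM.

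Hk1, the hexokinase found in most tissues, showed the widest range among the well-counted members, at 7.16-fold (3.72-15.8). Its lowest group was medullary MD, with 9 counts. Without the MD groups the range was 1.54-fold for Hk1 and 2.60-fold for Pfkp. The level of Hk1 in the cortex library was 107 (92.2-124) CPM in MD, 284 (272-296) in TAL-alpha, 253 (240-267) in TAL-beta and 321 (284-362) in TAL-gamma. In the medulla library it was 54.2 (24.8-103) CPM in MD, 337 (317-358) in cortex-type, 388 (346-435) in between and 373 (357-390) in medullary-type TAL-alpha, 359 (331-388) in TAL-beta and 365 (353-378) in TAL-gamma. Both MD groups lay below all others. In the order of levels, cortical MD, TAL-beta and TAL-alpha followed each other with intervals that did not overlap (107, 253 and 284 CPM), while the neighbours above 284 CPM overlapped. After each barcode was thinned to 1000 counts, Hk1 was found in 6.74% of cortical MD barcodes and in 24.8% of cortical TAL-alpha (18.1% and 50.6% before thinning). Proximal tubule barcodes, which had at most 2 Slc12a1 counts, held Hk1 at 19.8 and 20.8 CPM in the cortex and medulla library, with 4.65% and 1.10% of thinned barcodes positive and 9.30% and 9.89% before thinning, at median depths of 3488 and 4607. Free RNA of uncalled barcodes held Hk1 at 249 (230-268) and 337 (313-363) CPM, above MD in both libraries. The part of free RNA in the TAL counts of Hk1 was not tested.

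Hk2, the insulin-responsive hexokinase of muscle and fat and a common hypoxia target, was at the detection limit. It had 25 counts in all TAL barcodes, with 0 to 5 counts in any class. Here a count of 0 is given with the level that 3 counts would make. In medullary TAL-beta 0 counts were found, which allows up to 1.71 CPM, and in medullary MD 0 counts allow up to 18.1 CPM. The thinned share of positive barcodes was at most 0.176% in any TAL class and 0 of 86 and 1.10% in the proximal tubule barcodes of the cortex and medulla library, so no difference between classes was detectable at this depth.

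Pfkp, the platelet-type phosphofructokinase, differed between the groups of the medulla library more than between those of the cortex library outside MD. In the cortex library its level was 61.8 (50.4-74.9) CPM in MD, 109 (102-116) in TAL-alpha, 87.6 (79.8-96.0) in TAL-beta and 94.5 (74.7-118) in TAL-gamma. In the medulla library it was 60.2 (28.9-111) CPM in MD, 136 (124-150) in cortex-type, 152 (126-181) in between and 228 (215-241) in medullary-type TAL-alpha, 137 (120-156) in TAL-beta and 209 (200-218) in TAL-gamma. The intervals of medullary-type TAL-alpha and TAL-gamma overlapped each other and no other group. Pfkp was found in 18.8% and 17.3% of their thinned barcodes. In the same library it was found in 13.4% of cortex-type and 14.9% of between TAL-alpha and 11.7% of TAL-beta. In cortical TAL-alpha it was 10.6%. Free RNA of uncalled barcodes held Pfkp at 81.6 (71.1-93.3) CPM in the cortex library. In the medulla library it was 170 (153-189) CPM, above cortex-type TAL-alpha and TAL-beta. The part of free RNA in the TAL counts of Pfkp was not tested.

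The other phosphofructokinase genes moved differently. Pfkl, the liver type, ranged from 13.2 CPM in cortical MD (22 counts) to 38.3 (33.2-43.9) in medullary-type TAL-alpha, and stood low in TAL-beta of both libraries, at 21.2 (17.5-25.6) and 17.6 (12.0-25.0) CPM. Pfkm, the muscle type, was highest in TAL-beta of both libraries, at 36.5 (31.5-42.1) CPM in cortex and 36.4 (28.1-46.5) in medulla, and lowest outside MD in medullary-type TAL-alpha at 22.8 (19.0-27.3) CPM. Many of these intervals overlapped: those of Pfkm in medullary-type TAL-alpha and cortical TAL-beta did not. Free RNA of uncalled barcodes held Pfkl at 18.4 and 33.5 CPM and Pfkm at 33.9 and 33.5 CPM in the cortex and medulla library. Its part in the TAL counts of both genes was not tested.

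Aldoa, the aldolase of most tissues, had 2073 counts and stood between 53.3 and 63.5 CPM in every group except cortical MD at 43.2 (33.8-54.4), medullary MD at 24.1 (6.56-61.7) and between-type TAL-alpha at 36.9 (24.7-53.0). Free RNA of uncalled barcodes held Aldoa at 120 (107-134) CPM in the cortex and 94.8 (81.9-109) in the medulla library, above every TAL class. The part of free RNA in the TAL counts of Aldoa was not tested. Aldoc, the brain-type aldolase, had 160 counts, 135 of them in 2 groups of the medulla library. It reached 9.94 (7.99-12.2) CPM in TAL-gamma and 8.36 (6.10-11.2) in medullary-type TAL-alpha, against 1.87 (0.686-4.07) in cortex-type TAL-alpha, 1.76 (0.961-2.95) in cortical TAL-alpha and 0.191 (0.00484-1.07) in cortical TAL-beta. Cortical MD had 0 counts, which by the same limit of 3 counts allows up to 1.80 CPM. Free RNA in uncalled barcodes of the raw matrices held 23 Aldoc counts in the medulla library (11.2 CPM) and 4 in the cortex library, and its part in the difference was not tested. Proximal tubule barcodes of both libraries were at 0, where 3 counts would make 7.44 and 6.95 CPM in the cortex and medulla library. Their exact Poisson upper limits, 9.15 and 8.54 CPM, lay above the level of medullary-type TAL-alpha.

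Pkm, the pyruvate kinase of most tissues other than liver and red cells, was 48.6 (38.6-60.4) CPM in MD, 100 (93.6-108) in TAL-alpha, 121 (112-131) in TAL-beta and 136 (112-163) in TAL-gamma of the cortex library. In the medulla library it was 54.2 (24.8-103) CPM in MD, 107 (96.2-119) in cortex-type, 126 (102-153) in between and 143 (133-153) in medullary-type TAL-alpha, 164 (146-184) in TAL-beta and 147 (140-155) in TAL-gamma. In both libraries TAL-beta stood above the cortical or cortex-type TAL-alpha with intervals that did not overlap. Free RNA held Pkm at 106 (94.1-119) CPM in the cortex library. In the medulla library it was 153 (136-170) CPM, above cortex-type TAL-alpha. The part of free RNA in the TAL counts of Pkm was not tested.

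Ldhb, the heart-type subunit of lactate dehydrogenase, had the narrowest range. It was 245 (222-270) and 265 (193-356) CPM in MD of the cortex and medulla library, and between 349 (337-361) in medullary TAL-gamma and 449 (418-482) in medullary TAL-beta elsewhere. TAL-beta of the cortex library stood at 430 (412-448) CPM and cortical TAL-alpha at 397 (384-412). Free RNA held Ldhb at 472 (446-499) CPM in the cortex library, above every TAL class there, and at 413 (386-442) in the medulla library. The part of free RNA in the TAL counts of Ldhb was not tested. Ldha, the muscle-type subunit, ranged from 12.5 (7.85-19.0) CPM in medullary TAL-beta to 31.5 (20.6-46.2) in cortical TAL-gamma, apart from medullary MD with 1 count, and most of its intervals overlapped. Proximal tubule barcodes held Ldha at 66.9 (44.1-97.4) and 37.0 (21.2-60.2) CPM, above every TAL class of their library, and free RNA held it at 49.7 and 50.5 CPM, and the part of such RNA in the TAL counts of Ldha was not tested.

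MD barcodes held less of most members than TAL-alpha barcodes. The comparison addresses how the sensing cells at the end of the TAL differ from the transporting cells around them. In the cortex library 6 of the 8 members with enough counts were past 1.5-fold lower in MD and 0 higher, against 12.3% lower and 12.1% higher among all 11465 genes with enough counts. The median ratio of the 8 members was 0.592 and that of all genes 1.02. Hk1 stood at 0.378 (0.323-0.440) of its TAL-alpha level, Pfkl at 0.445 (0.274-0.690), Pkm at 0.484 (0.380-0.608), Pfkp at 0.568 (0.459-0.698), Ldhb at 0.617 (0.555-0.684) and Pfkm at 0.631 (0.416-0.926). The log2 ratio of Hk1 was -1.40, and reached -2.03 after thinning and -2.09 by deposited clusters. Aldoa, at 0.735 (0.565-0.944), and Ldha, at 0.835 (0.555-1.22), did not pass 1.5-fold. Against cortical TAL-beta, a comparison added after the counts were seen, Pkm stood at 0.402 (0.315-0.507), Hk1 at 0.424 (0.361-0.496), Pfkm at 0.493, Ldhb at 0.571 and Pfkl at 0.622, while Aldoa, Pfkp and Ldha, at 0.680, 0.705 and 0.727, were within 1.5-fold. The share of all genes past 1.5-fold was not computed for this comparison.

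The medulla library held 78 MD barcodes with 82 counts of the 10 genes. There 7 of 8 members were past 1.5-fold lower than in cortex-type TAL-alpha, a comparison also added after the counts were seen, against 23.8% lower and 18.8% higher among all 7897 genes with enough counts, and the median ratio was 0.429. The 3 counts set for a gene at 0 make 18.1 CPM in medullary MD. Genes at 0 there can therefore miss the call as lower, and 23.8% can be too low to compare like for like with the members. Hk1 stood at 0.161 (0.0733-0.306) with 9 MD counts, Pfkp at 0.442 (0.211-0.821), Pkm at 0.506 (0.229-0.971) and Ldhb, the member within 1.5-fold, at 0.672 (0.486-0.908). The intervals of Pfkl, Pfkm, Aldoa and Ldha, with 1 to 4 MD counts each, included a ratio of 1.

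**Figure D2:**
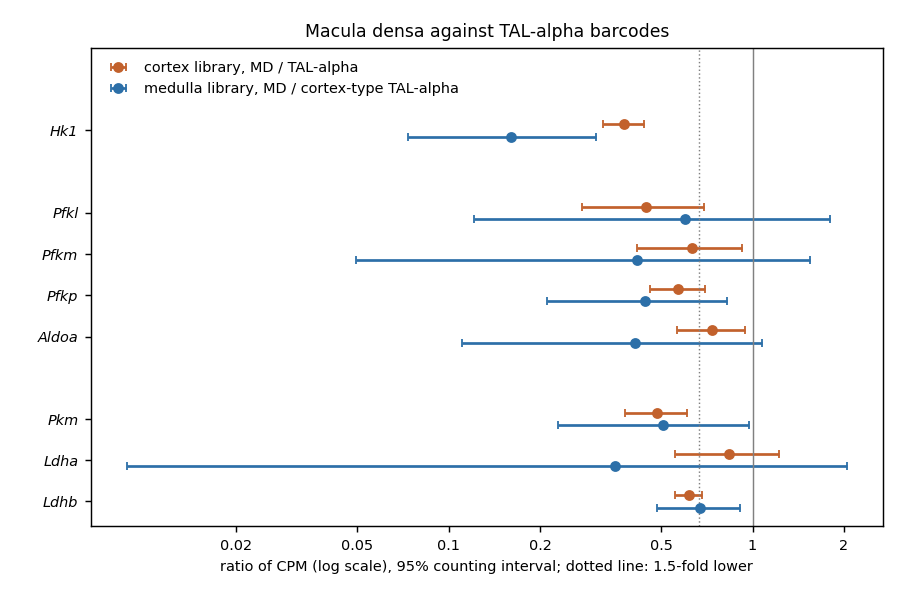
Ratio of the level in MD to that in TAL-alpha (cortex library, orange) or cortex-type TAL-alpha (medulla library, blue) on a log axis, for the 8 members with at least 50 counts. Bars are conditional binomial 95% intervals, the solid line is a ratio of 1 and the dotted line 1.5-fold lower. All 16 points lie below 1, and Hk1 is lowest in both libraries at 0.378 and 0.161.

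Other measures differed between these classes too. Umod, the gene of uromodulin, stood at 718 CPM in cortical MD and 3804 CPM in cortical TAL-alpha. The 7 genes of a stress and injury list were at 55.8 against 28.0 CPM, 3 distal convoluted tubule markers at 178 against 87.4 CPM and 6 proximal tubule markers at 1644 against 2270 CPM. The median depth was 1883 counts in cortical MD and 2425 in cortical TAL-alpha. In the medulla library the proximal tubule markers were at 524 CPM in MD and 492 CPM in cortex-type TAL-alpha. The part of these differences in the result was not tested. The count of members past 1.5-fold lower in cortical MD was 6 without barcodes that held markers of other cell types and 7 after thinning to 1000 counts. In such sums over barcodes, fewer expressing nuclei and less RNA per nucleus cannot be told apart.

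The MD threshold of 3 counts of Nos1 and Pappa2 can be judged from the levels on either side. In the cortex library the 10 genes together stood at 1064 (1046-1082) CPM in TAL barcodes with 0 counts of Nos1 and Pappa2, 874 (809-943) with 1 count, 577 (503-658) with 2, 665 (566-775) with 3, 673 (580-777) with 4, 501 (448-557) with 5 to 9 and 518 (455-586) with 10 or more. Hk1 stood at 283 (274-292) CPM at 0 counts and at 87.3 (60.1-123) at 2 counts, just outside the class, and was 131 (89.8-185) at 3 counts, just inside it. Barcodes just below the threshold were closer to those above it than to those at 0 counts in these levels, and the TAL-alpha, TAL-beta and TAL-gamma classes of the cortex library hold 133 of them.

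**Figure D3:**
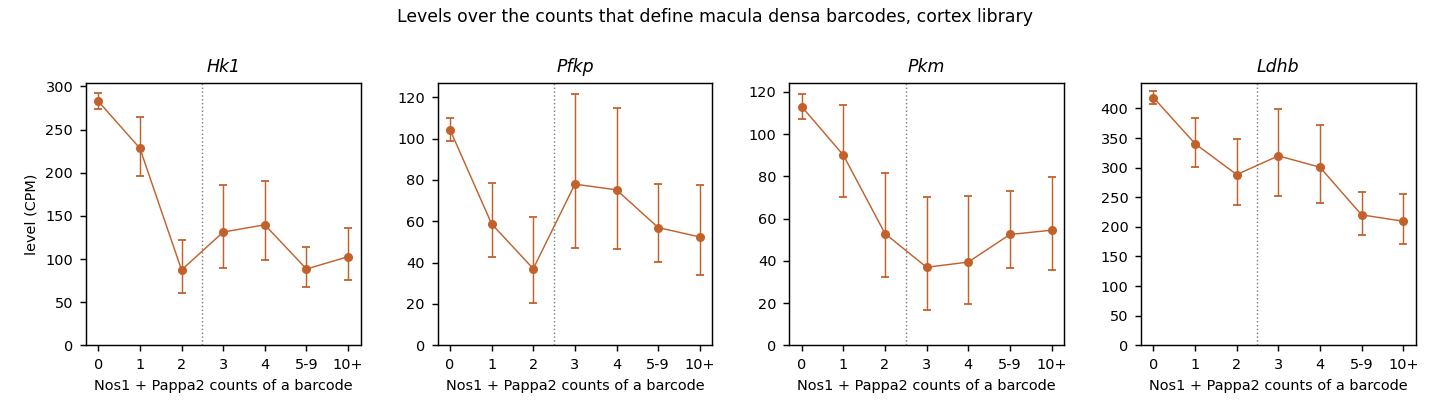
Levels (CPM, linear axes from 0) of Hk1, Pfkp, Pkm and Ldhb in TAL barcodes of the cortex library against the counts of Nos1 and Pappa2 together in a barcode. Bars are exact Poisson 95% intervals, and the dotted line is the threshold between other TAL classes and MD. Hk1 is at 283 CPM at 0 counts and already at 87.3 CPM at 2 counts, below the threshold.

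The wider pathway list, chosen with earlier results of these data known, gave 17 of 50 genes past 1.5-fold lower and 1 higher in cortical MD. The shares among all genes were 12.3% lower and 12.1% higher. The median ratio of the list was 0.737. Among the other glycolytic steps 5 of 8 genes were lower and 0 higher. Pgk1, phosphoglycerate kinase, stood at 0.443 (0.321-0.598) of its TAL-alpha level, Tpi1, triosephosphate isomerase, at 0.487 (0.336-0.687) and Eno1, enolase, at 0.520 (0.396-0.673), while Gapdh and Eno1b, at 0.531 and 0.590, had intervals that included 1. Of the genes of the NADH shuttles, which carry reducing equivalents into mitochondria, 5 of 10 were lower, among them Got1 at 0.364 (0.255-0.507), Mdh2 at 0.522 (0.384-0.696) and Mdh1 at 0.536 (0.450-0.634), with the aspartate-glutamate carriers Slc25a12 and Slc25a13 at 0.618 (0.559-0.682) and 0.603 (0.531-0.682). Dlat and Pdhb of pyruvate dehydrogenase were lower at 0.650 (0.558-0.755) and 0.628 (0.483-0.806). They were 2 of 12 genes of pyruvate entry to mitochondria, near the share of all genes. The glucose carriers Slc2a4 and Slc2a12 were lower at 0.503 (0.362-0.685) and 0.333 (0.119-0.755), 2 of 9 carriers. Of the gluconeogenic genes G6pc3 and Slc37a4 were lower at 0.463 (0.24-0.820) and 0.646 (0.425-0.948), 2 of 5.

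The gene past 1.5-fold higher in cortical MD encodes one of the bifunctional enzymes that set fructose 2,6-bisphosphate, the activator of phosphofructokinase. Pfkfb4 stood at 30.6 CPM in cortical MD and 11.3 CPM in TAL-alpha, a ratio of 2.71 (1.88-3.86), and at 36.1 and 8.10 CPM in MD and cortex-type TAL-alpha of the medulla library, where it had too few counts for a call. Pfkfb3, of the same family, stood at 0.402 (0.169-0.825) in cortical MD. Slc5a1, the sodium-glucose cotransporter SGLT1, was at 201 CPM in cortical MD and 164 CPM in TAL-alpha, within 1.5-fold, and at 331 and 194 CPM in the medulla library, a ratio of 1.71 (1.27-2.26). In that library 22 of 36 genes of the list were past 1.5-fold lower in MD and 4 higher. The shares among all genes were 23.8% and 18.8%, in the same order, and the first can be too low because counts of 0 were set to 3. The median ratio of the list was 0.518. Besides Slc5a1 the higher genes, of which Pdk1 and Gpd2 are named after their values were seen, were Pdk1, a kinase that inhibits pyruvate dehydrogenase, at 1.60 (1.02-2.41), and the NADH shuttle genes Gpd2, at 1.58 (0.847-2.73), and Gpd1l, at 1.68 (0.439-4.6) with 4 MD counts, while 6 of 9 NADH shuttle genes were lower. Got1, at 0.137 (0.0165-0.50), Eno1, at 0.209 (0.0428-0.616), and the glucose carrier Slc2a1, at 0.227 (0.0273-0.834), were among the lower genes, each with 2 or 3 MD counts.

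Along TAL-alpha of the medulla library the members split. The sum of Enox1 and Thsd4, which marks the cortex side, fixed the groups, and the comparison addresses how the limb changes with depth within 1 library. Medullary-type barcodes were past 1.5-fold higher than cortex-type barcodes for 2 of 9 members, Pfkp at a ratio of 1.67 (1.5-1.87) and Aldoc at 4.47 (1.90-12.8), and lower for 0, against 6.27% higher and 11.5% lower among all genes with enough counts. Aldoc had 45 medullary-type and 6 cortex-type counts, just over the minimum of 50 counts for a call. With so few cortex-type counts it could reach that minimum only through a high medullary-type count. Its call as higher was therefore nearly fixed by the filter and adds little to the comparison with all genes. After thinning Pfkp remained past 1.5-fold and Aldoc had too few counts for a call. The median ratio of the 9 members was 1.27 and that of all 10460 genes 0.993. Pkm, at 1.33 (1.17-1.52), and Hk1, at 1.11 (1.03-1.19), stood above 1 and Ldhb, at 0.905 (0.843-0.973), below 1 within 1.5-fold. The intervals of Pfkl, Pfkm, Aldoa and Ldha included 1.

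In bins of Enox1 and Thsd4 counts the level of Pfkp went from 243 (228-259) CPM at 0 counts to 181 (159-205) at 1 to 2, 152 (126-181) at 3 to 4, 140 (117-167) at 5 to 7 and 135 (120-151) at 8 or more. Pkm was 145 (134-157) CPM at 0 counts and 112 (98.9-127) at 8 or more, and Ldhb 345 (327-363) and 400 (374-426). Hk1 was highest in the middle bins, with 417 (383-454) CPM at 1 to 2 counts against 359 (341-378) at 0 and 320 (298-344) at 8 or more. With 1000 counts drawn per barcode and the barcodes kept in the same bins, Pfkp was 233 (211-256) CPM at 0 counts, 170 (137-209) at 1 to 2, 165 (123-217) at 3 to 4, 178 (136-229) at 5 to 7 and 127 (103-154) at 8 or more, so that the 3 middle bins overlapped and had no order. A more deeply sequenced barcode can hold more Enox1 and Thsd4 counts, and bins formed on the drawn counts were not tested. Median depth went from 2237 counts in the lowest bin to 2755 in the highest.

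**Figure D4:**
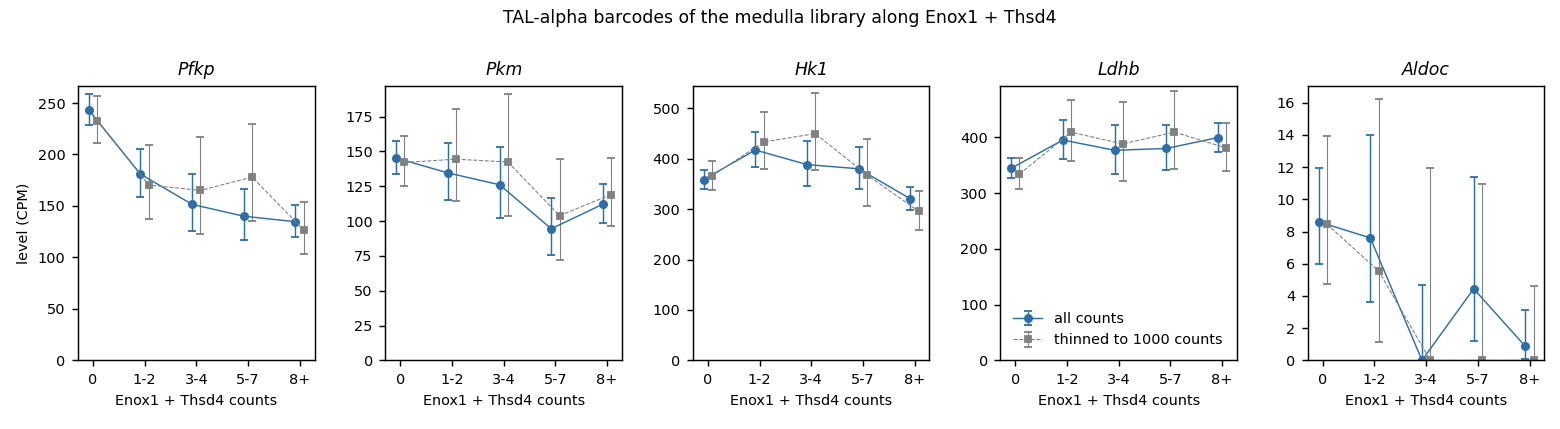
Levels (CPM, linear axes from 0) of Pfkp, Pkm, Hk1, Ldhb and Aldoc in TAL-alpha barcodes of the medulla library, in bins of the summed Enox1 and Thsd4 counts of a barcode. Blue points use all counts and grey squares 1000 counts per barcode in the same bins, with exact Poisson 95% intervals. Pfkp goes from 243 CPM in the first bin to 135 CPM in the last.

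Genes around the pathway also differed between these 2 groups of TAL-alpha barcodes, with 6 of 48 past 1.5-fold higher in medullary-type and 9 lower. The shares among all genes were 6.27% higher and 11.5% lower. Among the carriers, Slc2a1, the glucose transporter GLUT1, was higher at 1.70 (1.42-2.04), Bsg, the chaperone of lactate carriers, at 1.67 (1.32-2.12) and Slc16a7, the carrier MCT2, at 1.5 (1.43-1.58). Slc5a1, Slc2a4, Slc5a2 and Slc2a12 were lower at 0.448 (0.397-0.506), 0.623 (0.504-0.769), 0.530 (0.351-0.796) and 0.596 (0.336-1.06), so that all 7 carriers with enough counts were past 1.5-fold. Pgam1, phosphoglycerate mutase, was higher at 1.51 (1.13-2.04) and Gpd1l at 1.52 (1.07-2.18). Of the kinases that inhibit pyruvate dehydrogenase, Pdk4 was higher at 2.35 (1.34-4.35) and Pdk3 lower at 0.608 (0.458-0.805), and the phosphatase Pdp2 was lower at 0.524 (0.307-0.890). G6pc and Pck1 were lower at 0.420 (0.256-0.680) and 0.585 (0.467-0.732). Both and Slc5a2 are genes of the proximal tubule, at 134 to 894 CPM in proximal tubule barcodes of that library, and the 6 proximal tubule markers stood at 293 CPM in medullary-type and 492 CPM in cortex-type barcodes. The 5 immune markers stood at 32.7 and 14.3 CPM in the same order. The part of either list in these values was not tested.

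Medullary TAL-gamma barcodes differed little from medullary-type TAL-alpha in the members. The same held for most of all genes, so this is not particular to the members. None of 9 members passed 1.5-fold in either direction, against 3.36% higher and 1.75% lower among 11644 genes, and their ratios lay between 0.909 (0.760-1.09) for Pfkl and 1.19 (0.823-1.74) for Aldoc. For Hk1 and Ldhb, the best counted, the ratios were 0.979 (0.926-1.04) and 0.977 (0.923-1.03), and both intervals included 1. In the wider list 1 gene of 51 was higher, Slc2a12 at 1.54 (0.976-2.5), and 1 lower, Slc5a1 at 0.663 (0.584-0.753). Against TAL-beta of the same library, a comparison added after the counts were seen, TAL-gamma held Pfkl at 1.97 (1.36-2.95), Ldha at 1.74 (1.12-2.84) and Pfkp at 1.52 (1.33-1.75) times the level, and Aldoc at 8.73 (2.35-73.2) times with 2 TAL-beta counts, while the other 5 members with enough counts stood between 0.734 and 1.02. How many of all genes pass 1.5-fold between TAL-gamma and TAL-beta was not computed.

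TAL-beta was compared with TAL-alpha in both libraries. In the cortex library none of 8 members passed 1.5-fold, against 5.44% higher and 4.15% lower among 12244 genes. Pfkm stood at 1.28 (1.05-1.56) and Pkm at 1.20 (1.08-1.34) times the TAL-alpha level, Pfkl at 0.716 (0.567-0.902) and Pfkp at 0.806 (0.718-0.903). In the medulla library 1 of 8 members was higher than in cortex-type TAL-alpha, Pkm at 1.53 (1.30-1.79), and 1 lower, Pfkl at 0.584 (0.376-0.883), against 4.47% higher and 6.6% lower among 9076 genes. Pkm and Ldhb stood above TAL-alpha, and Pfkl below it, in both libraries, with intervals that did not include 1. Ldhb in the cortex library turned from a log2 ratio of 0.11 to -0.75 after subtraction of the free RNA profile, and Pkm in the medulla library was within 1.5-fold at stricter class thresholds. Of the TAL-beta barcodes 31.8% in the cortex library and 62.9% in the medulla library also met the rule of TAL-gamma. Without barcodes that met more than 1 rule, the log2 ratios in the medulla library were -1.33 for Pfkl (-0.78 with them), 0.43 for Pkm (0.61) and 0.40 for Ldhb (0.19). Of the wider list 3 of 51 genes were higher and 0 lower in cortex, and 2 of 43 were higher and 1 lower in medulla. The counts of higher genes were near the shares of all genes. Pfkfb3 stood higher in TAL-beta of both libraries, at 1.65 (1.24-2.21) in cortex and 1.76 (0.986-3.13) in medulla, Slc2a12 at 2.10 (1.21-3.65) and Slc25a13 at 0.622 (0.542-0.713) in medulla, and Slc2a2 at 1.53 (1.30-1.81) and Pdk4 at 1.69 (0.972-2.96) in cortex. Slc2a2 is a proximal tubule gene, and the 6 proximal tubule markers stood at 2809 CPM in cortical TAL-beta and 2270 CPM in cortical TAL-alpha. The 3 distal convoluted tubule markers stood at 374 against 87.4 CPM in the cortex library and at 210 against 6.54 CPM in the medulla library. The part of these differences was not tested.

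Between libraries, the members of like TAL-alpha barcodes were close, as were most of all genes. None of 8 members passed 1.5-fold between cortex-type TAL-alpha of the medulla library and TAL-alpha of the cortex library, against 2.01% higher and 12.1% lower among 11627 genes. Pfkp stood 0.32 higher on the log2 scale, with an interval of the ratio of 1.11 to 1.41, and Hk1 at 1.19 (1.10-1.28) times the cortical level. Without barcodes that held markers of other cell types these log2 ratios were 0.10 for Pfkp and 0.06 for Hk1, against 0.25 for Hk1 with them. Ldhb stood at 0.992 (0.928-1.06), Aldoa at 0.997 (0.837-1.18) and Ldha at 0.746 (0.542-1.01). For TAL-beta, a comparison added after the counts were seen, the medulla library held Pfkp at 1.57 (1.33-1.83), Hk1 at 1.42 (1.29-1.56) and Ldha at 0.475 (0.288-0.748) times the cortical level, and the other 5 members with enough counts stood between 0.831 and 1.36. A share over all genes was not computed for TAL-beta between libraries. In the wider list 13 of 50 genes were lower and 1 higher in cortex-type TAL-alpha of the medulla library. The lower genes included 4 of 5 gluconeogenic genes, with G6pc at 0.232 (0.166-0.316), Fbp1 at 0.318 (0.252-0.397), Slc37a4 at 0.335 (0.221-0.493) and Pck1 at 0.380 (0.320-0.448), and the glucose carriers Slc5a2 and Slc2a2 at 0.224 (0.166-0.296) and 0.229 (0.148-0.340). Pcx, Ldhd and Gpd1 were lower at 0.411, 0.598 and 0.547, with intervals below 1, and Gapdh, Tigar and Slc2a3 at 0.613, 0.546 and 0.545, with intervals that included 1. The 6 proximal tubule markers stood at 492 CPM in the former and 2270 CPM in the latter. Slc16a7 was higher, at 1.51 (1.43-1.60).

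The mix of isozyme counts was also compared. Among the 3 phosphofructokinase genes Pfkp made up 65.2% (62.5-67.7) of counts in cortical TAL-alpha, 69.7% (65.9-73.3) in cortex-type and 78.9% (76.8-80.9) in medullary-type TAL-alpha, and 77.2% (75.5-78.9) in medullary TAL-gamma. The share of Pfkm was 25.1% (22.1-28.4) in cortical and 19.0% (15.0-23.7) in medullary TAL-beta, and 7.90% (6.61-9.35) in medullary-type TAL-alpha. In MD of the cortex library Pfkp made up 66.5% (58.4-73.8), which overlapped cortical TAL-alpha, while the level of each of the 3 genes was lower in MD. Ldha made up 2.71% (1.71-4.08) of the lactate dehydrogenase counts in medullary TAL-beta and 6.01% (5.02-7.13) in medullary-type TAL-alpha, and 7.26% (5.02-10.1) in cortical MD. Aldoc made up 13.3% (9.88-17.4) of the aldolase counts of medullary-type TAL-alpha and 14.3% (11.7-17.3) of those of medullary TAL-gamma, against at most 4.35% in the other groups. Cortical TAL-gamma, between TAL-alpha and medullary MD had only 46, 29 and 4 aldolase counts. Their intervals reached 14.8%, 11.9% and 60.2% and overlapped those of the higher groups. Hk2 made up at most 1.65% (0.341-4.74) of the counts of Hk1 and Hk2 in any class. Because capture differs between genes, these shares are read as differences between classes and not as amounts of enzyme.

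**Figure D5:**
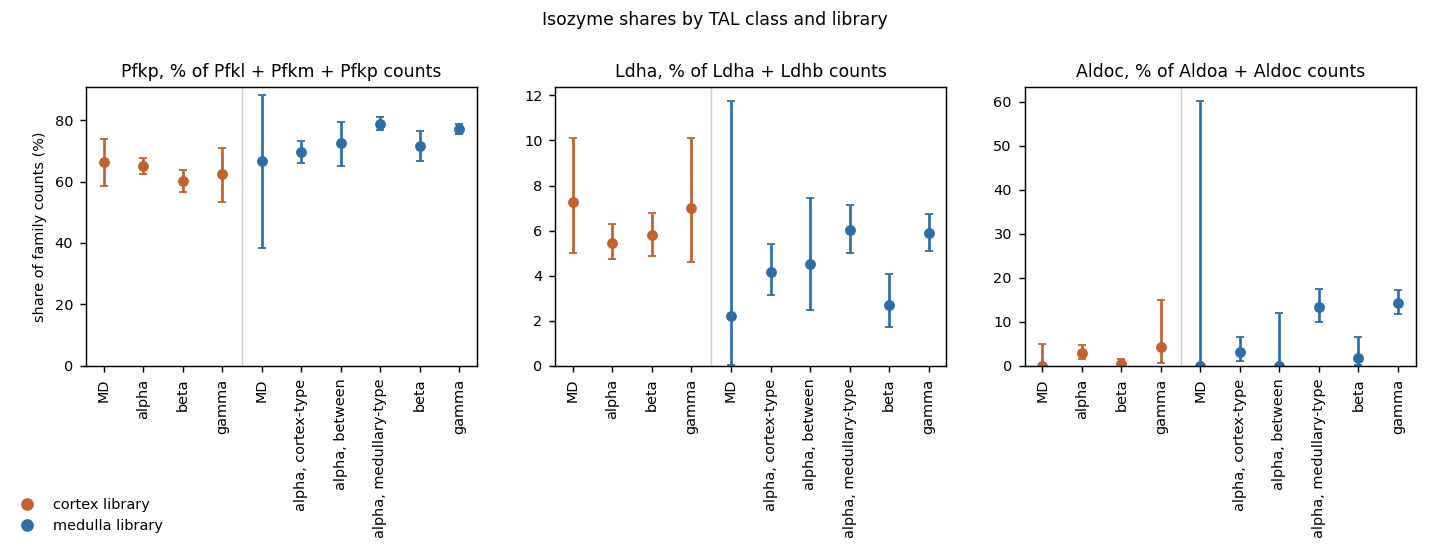
Share of 1 isozyme in the summed counts of its family (percent, linear axes from 0) by class, in the cortex library (orange) and the medulla library (blue), with Clopper-Pearson 95% intervals. The share of Pfkp is 65.2% in cortical and 78.9% in medullary-type TAL-alpha, and that of Aldoc is 13.3% and 14.3% in medullary-type TAL-alpha and TAL-gamma.

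For each member whose highest and lowest level differed by at least 2-fold, the 3 genes with the most similar levels over the 10 class and library groups were found by Pearson's r of log2(CPM + 1) among 10994 genes. The 10 points share 2 libraries, and the MD groups set much of their range. For Hk1 these were Chst9 (r of 0.996), Pde1a (0.995) and Cox5a (0.995), for Pkm Lrrc31 (0.991), Dnaaf9 (0.989) and Dst (0.982), and for Pfkp Dcun1d1 and Cdkl1 (both 0.980) and Wdr20 (0.975). For Pfkm they were Myo10 (0.986), Arhgap24 (0.978) and Slc45a4 (0.973), for Pfkl Mrpl45 (0.930), Celsr2 (0.929) and Peak1 (0.928), and for Aldoa Dcaf12 (0.976), Rit2 (0.974) and Rrp8 (0.97). For the sparsely counted members they were Ppfia1 (0.984), Ampd2 (0.980) and Pex11g (0.975) with Ldha, and Parp4 (0.964), Inpp5f (0.947) and Snx21 (0.930) with Aldoc. Hk2, with 25 counts, is left out, and Ldhb, with a range of 1.83-fold, was not part of this search.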

How the data were processed

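The authors sorted nuclei by fluorescence from snap-frozen cortex and medulla, captured their RNA by PIPseq with a 3′ kit, and used PIPseeker with GRCm39 to obtain transcript numbers for each gene in each barcode. The deposited values are whole-number counts without normalization, as a filtered matrix of barcodes called as nuclei and a raw matrix of all barcodes. They precede the authors' doublet removal, ambient RNA correction and normalization. The submitters' processing notes also name bcl2fastq and Seurat 4.4.0. The deposited cluster numbers served in 1 alternative, and UMAP coordinates were not used.

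Here counts were summed by class and scaled to CPM in Python 3.11.15 (numpy 2.4.6, scipy 1.17.1, pandas 2.3.3), with no filter on barcodes beyond the class rule and no doublet caller. Alternatives left out barcodes meeting more than 1 class rule, barcodes with at least 3 counts of other cell types' markers, or the 5% deepest. More than 1 rule was met by 10.7% of cortical and 4.68% of medullary TAL barcodes. The shares were 31.8% and 62.9% for TAL-beta and 12.9% and 17.9% for MD, in the same order of libraries. With 1 library per region no test was made, and barcodes are not replicates. Proximal tubule barcodes had at most 2 Slc12a1 counts and at least 5 of Lrp2 and Slc34a1. The free RNA profile is the sum of uncalled barcodes with at most 100 counts. Aldoa is listed under 2 identifiers. The second, with 4 and 7 counts, was left out after its counts were seen. Of the wider list 67 of 68 genes were in the matrix.

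The members, lists and settings were chosen with earlier results of these data known. Named were all members, genes of the wider list with at least 100 TAL counts that passed 1.5-fold in at least 1 of 6 comparisons, and for members with a 2-fold range the 3 genes most alike among those with at least 200 counts (left out for Hk2, whose counts were too few). The comparisons of MD with TAL-beta, MD with cortex-type TAL-alpha, TAL-gamma with TAL-beta and of TAL-beta and MD between libraries, 5 in all, were added after the counts were seen. Among these, a share over all genes was computed only for MD against cortex-type TAL-alpha. The ratio computation was tested on simulated data. Some genes of the wider lists are counted in the totals but not reported here by name.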

Additional observations from a re-analysis of the deposited data

How the results depend on the processing

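The count of 6 members past 1.5-fold lower in cortical MD lay between 4 and 8, with 0 higher, under the 11 alternatives that kept the fold, and became 3 at a fold of 2. No ratio that had passed 1.5-fold changed direction. Hk1 in MD moved from a log2 ratio of -1.40 to -2.09 when barcodes were grouped by the deposited clusters and to -2.03 after thinning. For cortical TAL-beta the count of 0 became 1 with stricter class cuts, 1 class rule at most, without the 5% deepest, after thinning and by deposited clusters, 2 at a fold nearer to 1, and 6 (2 higher, 4 lower) after subtraction of the free RNA profile. For medullary TAL-beta the count of 2 became 1 with stricter cuts, 1 class rule at most, without the 5% deepest and by deposited clusters, 0 at a fold of 2 and 4 at a fold nearer to 1. For medullary-type TAL-alpha the count of 2 became 1 after thinning and at a fold of 2, and 6 at a fold nearer to 1. For TAL-gamma the count of 0 became 1 after thinning, and between libraries the count of 0 became 1 after thinning and by deposited clusters, 2 after subtraction and 2 at a fold nearer to 1. The cause was not tested, save that a lower fold admits more genes.

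Subtraction scaled the free RNA so that proximal tubule markers approached 0, which removed 26.0% to 95% of the counts of a class. This is an upper bound, since proximal tubule transcripts of mixed barcodes are counted as free RNA. It moved the share of Ldha from 7.26% to 0 in cortical MD and from 5.46% to 0 in cortical TAL-alpha, where leaving out barcodes with other markers gave 4.13%. It moved the share of Pfkp from 65.2% to 70.4% in cortical, 69.7% to 56.7% in cortex-type and 78.9% to 82.7% in medullary-type TAL-alpha, and from 77.2% to 81.1% in TAL-gamma. Under the alternatives 54 log2 ratios of members moved out of their counting interval and 477 did not. Subtraction gave 22 of the former and put Pfkp at -1.74 against 0.32 between libraries and at 2.54 against 0.74 between medullary-type and cortex-type TAL-alpha, and Ldhb in cortical MD at -3.62 against -0.70. With a minimum of 20 counts, 6 of 14 background shares moved by over 1.5 times, the highest of these to 8.18%. No paired analysis was possible because each group holds 1 library.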
